A study of Homo sapiens with 6 samples.

Results

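The genes described here lie on the short arm of human chromosome 16 (16p) and were given as a list of 49 names running from POLR3K, at the end of the chromosome, to TUFM and NFATC2IP, nearer the centromere. A gene was measured where a probe set of the array carried its symbol alone, and of several such probe sets the one with the highest mean over all 6 arrays was used. This left 43 of the 49 genes, out of 11963 genes measured in all. NUBP2, TRAF7, NMRAL1, ARL6IP1 and EEF2K had no probe set listed under their symbols in the annotation used here, and the probe set for ZNF263 carried several symbols, so these 6 have no value. The genes were chosen by their position together with the signal difference between the 2 groups, so their values in that contrast are a description and no p-value is attached to them.

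RNA came from cells labelled as HSC2, an established line of human oral squamous carcinoma, grown in DMEM with serum. On 3 single-colour arrays the cells were labelled as carrying a stably transfected cDNA of full-length wild-type MALT1, a paracaspase of NF-kappaB signalling, and on the other 3 the vector alone (mock). The comparison asks which transcripts differ between cells given MALT1 and cells given the vector. The labels name neither the promoter that drives the cDNA nor whether a group is 1 clone or a pool, and they leave unsaid whether a group's arrays are separate cultures, so the spread between arrays may be technical.

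Some measurements of the arrays go against their labels. All 3 probe sets for MALT1 itself were lower on every array labelled MALT1 than on every mock array, and 2 of them passed the test. The one with the largest difference read 127.8, 124.5 and 106.9 against 282, 242 and 236 on the mock arrays (log2 difference −1.08, adjusted p = 0.0022 in the limma fit). No probe sequences were at hand, so whether these probe sets detect the transfected cDNA is not known. The groups are called by their labels throughout, and every direction below follows those labels. All 9 measured squamous markers passed as lower on the arrays labelled MALT1, with a summed signal of 15901 to 17797 against 47633 to 52033, and none was dim on all arrays of a group. All 11 luminal markers passed as higher, at 78231 to 87038 against 8971 to 9734, with KRT19, FOXA1 and TFF1 dim on all 3 mock arrays. Whether the labels of the groups were exchanged, or whether both groups are the cell line named, was not settled by these files. A difference between the groups may therefore be one between other cells than the labels say. The 6 fibroblast markers summed to 117.6 to 244 and 120.6 to 183, the 3 measured leucocyte markers to 31.6 to 61.9 and 13.3 to 34.6, and the 3 endothelial markers to 22.9 to 39.9 and 28.0 to 28.7, on the arrays labelled MALT1 and the mock arrays. Of these, LUM passed as lower (mean 0.275 on the arrays labelled MALT1 against 19.4) and CD14 as higher (17.6 against 1.51). Both were near or below the dim level, and the others did not pass. PTPRC, CDH5 and VWF were dim on all arrays of both groups. The part of these marker differences in the values below was not tested. A signal counts as dim here up to 17.6, which is the highest reading that any probe set for the bacterial trp control gave. The third array labelled MALT1 had the fewest dim probe sets (25.6%, against 31.7% to 33.3% on the other 5) and the highest ratio of 3′ to 5′ ACTB signal (4.46, against 3.59 to 3.98), and the count of calls over the list is also given without it. With 3 arrays per group, their number limits the precision.

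The short arm of chromosome 16 is dense in genes, most of them active in many tissues. Its outermost part holds the alpha-globin cluster among housekeeping genes, and further in lie TSC2, whose loss causes tuberous sclerosis, and CREBBP, the acetyltransferase gene affected in Rubinstein-Taybi syndrome. The genes share a position and not a function: they encode subunits of RNA polymerases and chromatin complexes, DNA glycosylases, brakes on the growth kinase complex mTORC1, ubiquitin ligases and mitochondrial enzymes.

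The promoter windows of a few genes are shown for the sequence next to their starts. They are from RefSeq on GRCh38.p14 and end at the base before the annotated start, read 5′ to 3′ along the gene. POLR3K, METRN, ABAT and EMP2 are shown because they were among the 6 genes with the largest differences, each at least 2 on the log2 scale. RBBP6 and CLCN7 are shown as genes whose groups overlapped. Capitals mark matches on either strand to the GC box GGGCGG or the CCAAT box CCAAT. POLR3K lies at chr16:53609-53827 on the minus strand, METRN at chr16:714868-715117 on the plus strand, ABAT at chr16:8674367-8674616 on the plus strand, EMP2 at chr16:10580599-10580848 on the minus strand, RBBP6 at chr16:24539316-24539565 on the plus strand and CLCN7 at chr16:1475029-1475278 on the minus strand. The POLR3K window has 219 bases because it stops where its divergent neighbour SNRNP25 begins, and the other windows have 250.
POLR3K: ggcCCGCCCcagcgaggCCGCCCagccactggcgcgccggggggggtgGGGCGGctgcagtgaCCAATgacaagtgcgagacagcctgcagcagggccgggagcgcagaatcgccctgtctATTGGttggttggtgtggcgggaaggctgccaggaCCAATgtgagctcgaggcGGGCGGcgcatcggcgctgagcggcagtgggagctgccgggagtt
METRN: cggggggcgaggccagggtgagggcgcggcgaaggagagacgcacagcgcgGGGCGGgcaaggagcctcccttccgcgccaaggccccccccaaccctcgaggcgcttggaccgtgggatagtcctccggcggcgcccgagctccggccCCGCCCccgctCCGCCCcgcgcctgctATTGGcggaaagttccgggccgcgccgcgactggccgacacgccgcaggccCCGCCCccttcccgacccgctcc
ABAT: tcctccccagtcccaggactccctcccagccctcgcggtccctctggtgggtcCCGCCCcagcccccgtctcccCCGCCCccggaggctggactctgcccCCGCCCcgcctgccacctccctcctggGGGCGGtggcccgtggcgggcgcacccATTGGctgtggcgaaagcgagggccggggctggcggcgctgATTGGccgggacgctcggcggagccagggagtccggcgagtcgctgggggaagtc
EMP2: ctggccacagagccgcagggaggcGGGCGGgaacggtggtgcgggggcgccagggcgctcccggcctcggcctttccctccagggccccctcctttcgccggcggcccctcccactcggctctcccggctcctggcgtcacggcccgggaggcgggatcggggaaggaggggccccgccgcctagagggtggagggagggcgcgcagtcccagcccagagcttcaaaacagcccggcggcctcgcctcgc
RBBP6: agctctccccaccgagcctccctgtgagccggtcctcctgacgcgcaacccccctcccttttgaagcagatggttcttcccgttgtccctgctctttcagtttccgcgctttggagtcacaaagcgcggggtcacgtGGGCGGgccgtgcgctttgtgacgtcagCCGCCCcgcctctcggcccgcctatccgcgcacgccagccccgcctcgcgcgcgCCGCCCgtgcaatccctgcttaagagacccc
CLCN7: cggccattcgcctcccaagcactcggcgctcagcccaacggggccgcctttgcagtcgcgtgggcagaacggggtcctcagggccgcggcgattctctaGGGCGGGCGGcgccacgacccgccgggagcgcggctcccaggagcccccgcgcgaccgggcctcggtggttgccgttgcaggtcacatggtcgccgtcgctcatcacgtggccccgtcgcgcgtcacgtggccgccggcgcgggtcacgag

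These windows were rich in G and C, from 68.0% in RBBP6 to 78.4% in METRN, and each held at least 1 GC box. POLR3K, METRN and ABAT had 4 matches to the GC box each, RBBP6 had 3, CLCN7 had 2 that overlap, and EMP2 had 1. The CCAAT box occurred 3 times in the POLR3K window, 2 times in ABAT and 1 time in METRN, and in none of the other windows shown. Of the 43 measured genes, 36 had a window in the table, and STUB1, ADCY9, RSL1D1, TMC5, GDE1, CRYM and COG7 did not. The GC box was in 28 of these 36 (77.8%), in 60.6% of the 9562 windows of genes named on the array and in 42.3% of all 27305 windows. The CCAAT box was in 16 of 36 (44.4%), against 35.6% and 33.0%. Among genes with a difference of at least 1 on the log2 scale, 9 of 13 windows held a GC box, and among those under 0.25 in either direction 7 of 7 did. The TATA box TATAAA was in 1 of 36 windows, that of GSPT1, against 7.93% of the windows of array genes and 11.1% of all windows. The ETS core CCGGAAG was in 6 of 36 (16.7%), against 12.8% and 8.82%. The GATA motif AGATAA and the palindromic oestrogen response element were found in none of the 36. The first was in 6.21% of the windows of array genes and 9.37% of all, and the second in 0.0209% and 0.0439%. Each motif was searched on both strands, and a match describes the letters alone.

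Most of the 43 genes were higher on the arrays labelled MALT1. In the fit across all probe sets, 26 of them passed an adjusted p of 0.05, 25 as higher and 1, NFATC2IP, as lower, and 17 did not pass. Of all 11963 genes 40.4% passed, 21.1% as higher and 19.2% as lower. Since the list was drawn up from this contrast, nothing is read from its share. Without the third array labelled MALT1 the count was again 26, with 25 higher and 1 lower. Of the 26 calls, 15 remained in all 12 alternative settings, and that of TMC5 in the 11 in which it was tested. NPRL3, RAB11FIP3, PGP, SRRM2, ZNF174, CREBBP, GLYR1, COG7, TUFM and NFATC2IP lost theirs in 1 to 8 settings. In 15 genes the pass as higher came with a difference of at least 2-fold, as it did in 10.8% of all genes, and in none did the pass as lower (9.64% of all genes). All 3 arrays labelled MALT1 lay above all 3 mock arrays in 30 genes and below them in 3, where 29.0% and 25.6% of all genes did so. The median difference in log2(signal + 1) over the 43 genes was 0.73, with quartiles of 0.19 and 1.40, against 0.08 over all genes. Since in cultured cells a bulk signal averages over all cells, fewer cells of a kind and less RNA per cell cannot be told apart.

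**Figure D1:**
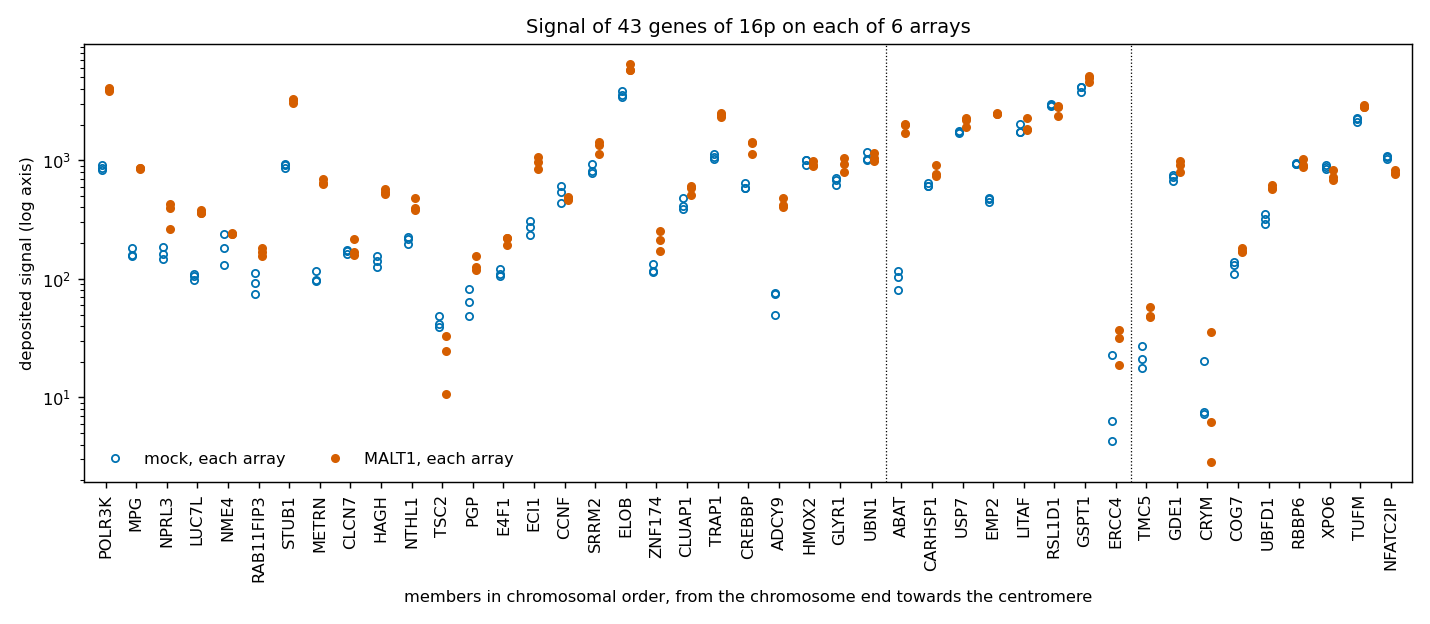
Deposited signal (log axis) of the 43 measured genes on each array, in chromosomal order, with open circles for the 3 mock arrays, filled circles for the 3 arrays labelled MALT1 and dotted lines between the distal, middle and proximal stretches. The filled circles lie above the open ones in 30 genes, most of them in the distal stretch on the left, and the dim genes ERCC4 and CRYM spread widely within a group.

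The counts by role that follow are of a list drawn up from this contrast, so nothing is read from them about a role. Of all genes, 21.1% passed as higher and 19.2% as lower. Among the listed genes of transcription and chromatin, 6 of 7 measured passed as higher on the arrays labelled MALT1 and 1, UBN1, did not pass. POLR3K, a small subunit of RNA polymerase III, which transcribes tRNA and 5S rRNA genes, read 3958, 3826 and 4044 on the arrays labelled MALT1 and 829.6, 865 and 912 on the mock arrays. The groups lay far apart, at a 4.54-fold ratio of geometric means (log2 difference 2.18 ± 0.08 SE, n = 3 per group). CREBBP, a histone acetyltransferase and coactivator, read 1422, 1399.8 and 1138 on the arrays labelled MALT1 and 585, 642 and 583 on the mock arrays. Its lowest value among the arrays labelled MALT1 was on the third, and still lay above every mock array, with a ratio of 2.18. UBN1, a subunit of the HIRA histone chaperone complex, read 992, 1144 and 1049.6 on the arrays labelled MALT1 and 1021, 1179 and 1007 on the mock arrays. Its groups overlapped, with a log2 difference of −0.01 ± 0.11 SE. The remaining genes of the group, which are the transcription factors E4F1 and ZNF174, elongin B (ELOB) and the chromatin cofactor GLYR1, had log2 differences of 0.90, 0.79, 0.73 and 0.46 without overlap between the groups. ELOB, a partner of elongin C in transcription elongation and in ubiquitin ligases, read 5987 ± 444 against 3606 ± 213 (mean ± SD, n = 3 each).

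The DNA repair genes were all on the higher side, with 2 of 3 passing. MPG, the glycosylase that removes alkylated purines in base excision repair, read 858, 868 and 851 on the arrays labelled MALT1 and 159.5, 157 and 182 on the mock arrays. This was a 5.19-fold ratio with little spread in either group (log2 difference 2.37 ± 0.09 SE). NTHL1, the glycosylase for oxidised pyrimidines, read 381, 395 and 479 against 195, 215 and 223, a ratio of 1.98. ERCC4, which encodes the XPF endonuclease subunit of nucleotide excision repair, read 18.8, 36.9 and 31.7 against 4.26, 22.6 and 6.33. These signals were near the dim level, the groups overlapped and the difference did not pass (1.58 ± 0.63 SE).

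Of the growth signalling genes, 2 passed as higher and TSC2 did not pass. ADCY9, an adenylyl cyclase that makes cyclic AMP, read 477, 423 and 403 on the arrays labelled MALT1 and 76.1, 74.4 and 49.9 on the mock arrays. It had the largest ratio among the listed genes of the distal stretch, 6.60 (log2 difference 2.70 ± 0.20 SE). NPRL3, a subunit of the GATOR1 complex that restrains mTORC1 when amino acids are scarce, read 393, 428 and 263 against 163, 185 and 148. The third array labelled MALT1 was the lowest of its group, and without it the log2 difference was 1.31 and the call remained. The call was lost without the first array labelled MALT1 (1.02) and without the first (1.09) or the third mock array (1.02). TSC2, which restrains mTORC1 through the GTPase RHEB, read 33.0, 10.7 and 24.6 against 41.6, 48.2 and 39.5. Every array labelled MALT1 was below every mock array, but the signals were close to the dim level and the difference of −1.02 ± 0.42 SE did not pass. Its other probe set overlapped between the groups.

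Mitochondrial proteins gave the largest difference of the list, and 4 of 5 passed as higher. ABAT, the GABA transaminase that breaks down the transmitter GABA, read 2006, 1988 and 1694 on the arrays labelled MALT1 and 105, 116 and 80.5 on the mock arrays. At 19.0-fold it stood above all others (log2 difference 4.24 ± 0.17 SE). ECI1, an enoyl-CoA isomerase needed to oxidise unsaturated fatty acids, read 975, 843 and 1057 against 235, 273 and 305, a ratio of 3.54. TRAP1, the mitochondrial form of the HSP90 chaperone, read 2499.6, 2429 and 2307 against 1021, 1073 and 1123, a ratio of 2.25. Both showed groups separated by more than their spread. TUFM, the elongation factor of mitochondrial translation, passed with a smaller difference of 0.37 ± 0.08 SE, at 2849 ± 43.7 against 2200.3 ± 81.0 (mean ± SD, n = 3 each). NME4, a mitochondrial nucleoside diphosphate kinase, ran from 239 to 246 on the arrays labelled MALT1 and from 131 to 239 on the mock arrays. Its highest mock array reached the range of the other group, and the difference of 0.43 ± 0.23 SE did not pass.

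Among metabolic enzymes, 2 of 5 measured passed as higher. HAGH, glyoxalase II, which frees lactate from its glutathione ester, read 537, 520.0 and 575 on the arrays labelled MALT1 and 140.1, 156 and 125 on the mock arrays. The ratio was 3.89 (log2 difference 1.95 ± 0.12 SE). PGP, the phosphatase of phosphoglycolate, read 157, 125 and 118 against 48.3, 82.4 and 63.6, a ratio of 2.09. It no longer passed without the first (0.93) or the second (1.09) array labelled MALT1, or without the third mock array (1.05). HMOX2, the constitutive haem oxygenase, and GDE1, a glycerophosphodiester phosphodiesterase, had differences of −0.06 ± 0.09 SE and 0.32 ± 0.11 SE and did not pass. CRYM, which encodes the thyroid hormone binding protein mu-crystallin, read 2.86, 6.22 and 35.8 against 7.48, 7.29 and 20.1. It was at or below the dim level on 2 of 3 arrays in each group and overlapped, so neither direction nor size can be read from it (−0.18 ± 0.94 SE).

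In the ubiquitin pathway 2 of 5 measured genes passed as higher. STUB1, the ubiquitin ligase CHIP that marks clients of heat shock chaperones, read 3263, 3052 and 3227 on the arrays labelled MALT1 and 925, 919 and 859 on the mock arrays. The ratio was 3.53 (log2 difference 1.82 ± 0.08 SE). UBFD1, a protein with a ubiquitin-like domain, followed at 594 ± 23.2 against 319.8 ± 30.5 (mean ± SD, n = 3 each) and a ratio of 1.86. CCNF, cyclin F, the substrate receptor of an SCF ubiquitin ligase in the cell cycle, read 478, 495 and 459 against 601, 542 and 435. The arrays labelled MALT1 lay within the range of the mock arrays. The deubiquitinase USP7, which stabilises MDM2 and p53, had a small difference of 0.29 ± 0.10 SE without overlap, and the ligase RBBP6 stood at 936 ± 73.9 against 938 ± 5.36 with a difference of −0.01 ± 0.09 SE, and neither passed.

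Of 4 measured RNA-binding genes 2 passed as higher, and the 1 translation gene did not pass. LUC7L, a splicing factor related to a protein of the U1 particle, read 381, 360.1 and 357 on the arrays labelled MALT1 and 111, 105 and 97.4 on the mock arrays. Its ratio was 3.51 (log2 difference 1.80 ± 0.09 SE). SRRM2, a large scaffold of the spliceosome and of nuclear speckles, passed with a difference of 0.62 ± 0.13 SE, and CARHSP1, a cold-shock domain protein that binds mRNA, did not (0.37 ± 0.11 SE). RSL1D1, a nucleolar protein, read 2839.9, 2889 and 2382 against 2925, 2987 and 2847. The third array labelled MALT1 was the lowest of all 6 and the groups overlapped. GSPT1, the release factor eRF3a of translation termination, read 5173, 4956 and 4599 against 3786, 4123 and 4147. Its groups did not overlap, but the difference of 0.29 ± 0.09 SE did not pass on this probe set.

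Genes of membranes and membrane traffic split, with 4 of 7 measured passing as higher. EMP2, a tetraspan protein of epithelial membranes, read 2465, 2474 and 2485 on the arrays labelled MALT1 and 468, 483 and 444 on the mock arrays. The ratio was 5.32 (log2 difference 2.41 ± 0.08 SE). TMC5, a transmembrane channel-like protein, read 47.3, 48.8 and 58.1 against 17.7, 20.9 and 26.9, a ratio of 2.38 at signals a little above the dim level. The groups did not overlap in TMC5. The RAB11 effector RAB11FIP3 and the Golgi tether subunit COG7 also passed, at 0.88 and 0.47. The lysosomal chloride-proton exchanger CLCN7 and the endosomal protein LITAF differed by 0.09 ± 0.14 SE and 0.09 ± 0.13 SE with overlapping groups, and both changed sign when each array was centred on its median. XPO6, the export receptor for actin, read 717, 676 and 829.7 against 849, 869 and 916. All its arrays labelled MALT1 were lower, but the difference of −0.25 ± 0.11 SE did not pass.

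Of the last 3 genes, METRN was higher, NFATC2IP lower and CLUAP1 did not pass. METRN, which encodes the secreted neurotrophic factor meteorin, read 697, 641 and 633 on the arrays labelled MALT1 and 96.2, 117 and 98.2 on the mock arrays. The ratio was 6.35 (log2 difference 2.66 ± 0.11 SE). NFATC2IP, an interactor of the T-cell factor NFATC2 with SUMO-like domains, read 765, 780.0 and 821 on the arrays labelled MALT1 and 1017, 1069 and 1085 on the mock arrays. It was the 1 gene of the list that passed as lower, at a ratio of 1.34 of mock over MALT1 (log2 difference −0.42 ± 0.08 SE). CLUAP1, a component of intraflagellar transport in cilia, had a difference of 0.42 ± 0.13 SE without overlap on its brightest probe set.

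A gene's further probe sets did not always repeat its brightest one. In 22 of the 43 genes there were 35 further single-gene probe sets, of which 21 had the sign of the brightest and 14 the opposite sign. ABAT repeated on both of its further probe sets, which read 981 ± 132 against 42.2 ± 9.79 and 116 ± 8.04 against 22.2 ± 6.74 (mean ± SD, n = 3 each). All 3 probe sets of NPRL3 and of ZNF174 lay on the higher side, with further differences of 0.97 and 1.17 in NPRL3 and 0.50 and 0.79 in ZNF174. In ADCY9 the further probe sets read 87.6 ± 35.0 against 46.2 ± 3.23 and 8.69 ± 6.06 against 8.62 ± 4.56, so that 1 was higher on every array labelled MALT1 without passing and the other was dim in both groups. The further probe set of CREBBP was near the dim level and overlapped between the groups, at 29.0 ± 13.1 against 21.6 ± 7.19. Averaging its probe sets gave CREBBP a log2 difference of 0.74. For GLYR1, the further probe sets were near or below the dim level, at 22.8 ± 3.02 against 21.4 ± 4.85 and 8.83 ± 2.10 against 20.7 ± 7.63, and averaging all 3 turned its difference to −0.18. RSL1D1 differed the other way on a dimmer probe set, which passed as higher, at 304 ± 5.00 against 201 ± 11.3. So did USP7 on its dimmest, which passed as lower, at 77.5 ± 11.3 against 113 ± 6.64. GSPT1 and CLUAP1 did not pass on the brightest probe set, but each passed as higher on a further one. The log2 differences there were 0.46 in GSPT1 and 0.73 in CLUAP1. The dimmest probe set of GSPT1 went the other way without passing (−0.25). In NFATC2IP 3 of 4 probe sets passed as lower, where 17.0% of all 22215 probe sets did (18.6% as higher), and the fourth read 281 ± 14.0 against 263 ± 26.0. The remaining 21 genes, among them POLR3K, MPG, METRN and EMP2, rest on 1 probe set each. Those for LUC7L, METRN and STUB1 are of the x_at kind, which can bind several transcripts. The brightest probe sets of GLYR1, GSPT1 and XPO6 are of this kind too.

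**Figure D2:**
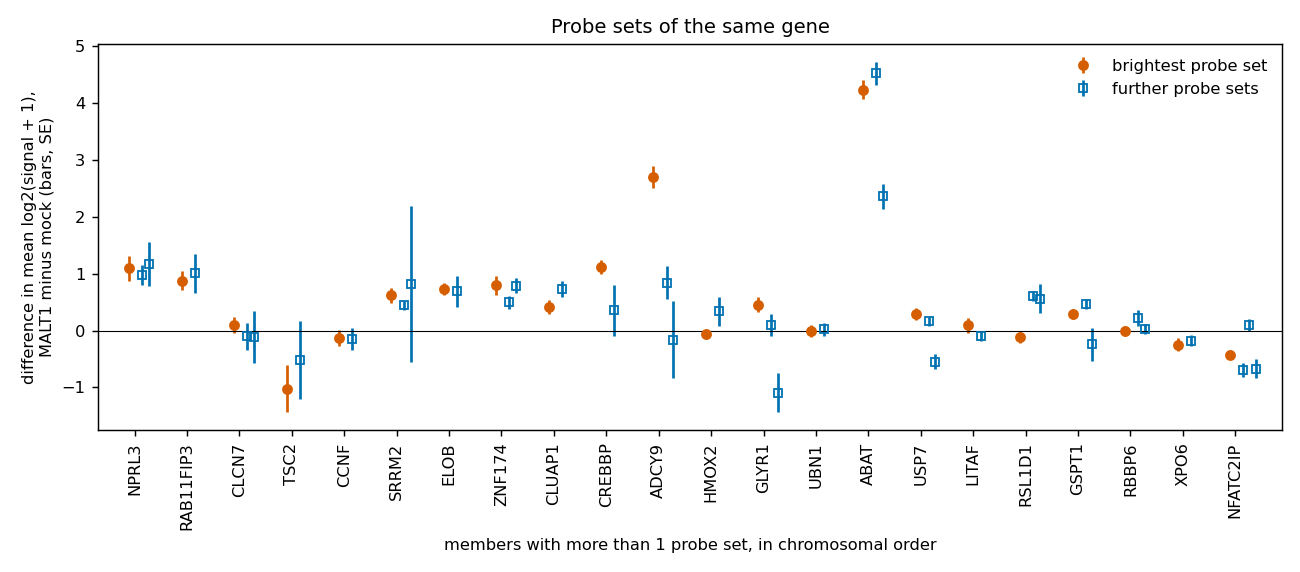
Difference in mean log2(signal + 1), MALT1 minus mock, for each single-gene probe set of the 22 genes with more than 1, with bars for the SE. Filled circles are the brightest probe set and open squares the further ones. ABAT is high on all 3, whereas ADCY9 is high on the brightest and lower on the other two.

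Along the arm the median difference of the listed genes was highest towards the chromosome end, although the largest single value, that of ABAT, lay further in. The 26 measured genes from POLR3K to UBN1 (distal stretch) had a median log2 difference of 0.94, and 19 passed as higher and 0 as lower, against 21.1% and 19.2% of all genes. The 8 from ABAT to ERCC4 (middle) had a median of 0.33, and 2, ABAT and EMP2, passed as higher. The 9 from TMC5 to NFATC2IP (proximal) had a median of 0.32, with 4 passing as higher and 1 as lower. Since the list was drawn up from this contrast, these medians and counts describe the list alone, and nothing is read from them about a stretch. The differences between stretches were not tested. The order was not smooth: CLCN7, CCNF, HMOX2 and UBN1, all distal, had differences between −0.13 and 0.09. The nearest listed genes on either side of TSC2, NTHL1 and PGP, were higher. TSC2 itself was near the dim level and did not pass.

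Of 242 other genes of 16p with a single-gene probe set, 74 passed as higher (30.6%), 13 as lower (5.37%) and 155 did not pass. Their median difference was 0.35, or 0.21 with genes dim on all arrays of a group set at their bound, against 0.08 and 0 over all genes. Their median was 0.51 over the 96 in the distal stretch, 0.13 over the 32 in the middle, 0.31 over the 54 in the proximal and 0.43 over the 60 beyond NFATC2IP. With dim genes at their bound these were 0.31, 0, 0.08 and 0.31. The share passing as higher was 33.3% in the distal stretch, 12.5% in the middle, 29.6% in the proximal and 36.7% beyond NFATC2IP, so the distal stretch was highest by the median and not by this share. On the long arm, 72 of 239 genes passed as higher (30.1%) and 32 as lower (13.4%), with a median of 0.28, or 0.06 at the bounds. Over all genes these shares were 21.1% and 19.2%. After median centring the long arm had 51 higher and 39 lower, where 16.3% and 21.0% of all genes were so called. Of the 242 other genes, 61 had only dim signals in at least 1 group and no member had, so the medians of the members and of the other genes are not over like genes.

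**Figure D3:**
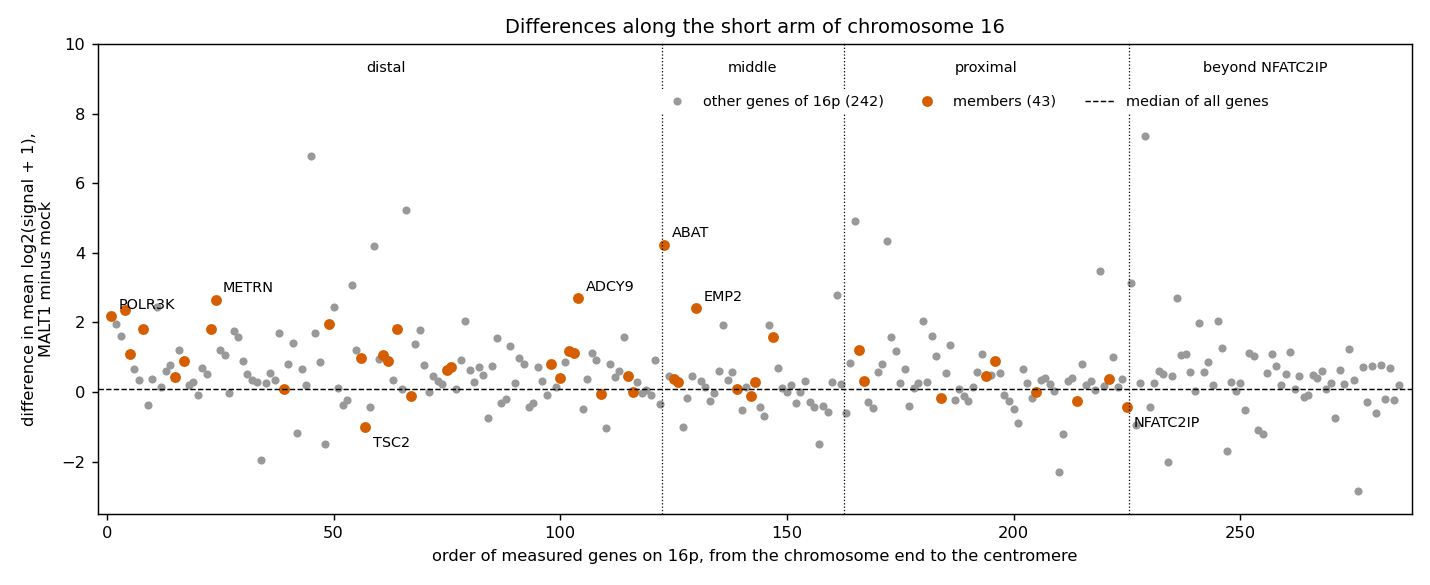
Difference in mean log2(signal + 1), MALT1 minus mock, of all 285 measured genes of 16p in their order from the chromosome end (left) to the centromere, with the 43 listed genes in colour and other genes in grey. The dashed line is the median over all genes, 0.08, and dotted lines part the 4 stretches. Members near the left end lie mostly above the line, up to 2.70 in ADCY9, and ABAT reaches 4.24.

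**Figure D4:**
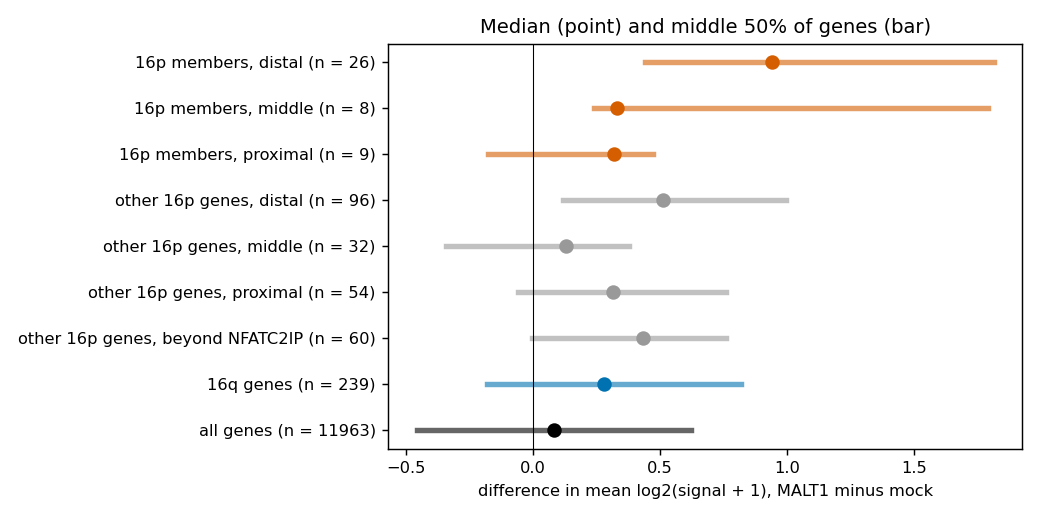
Median difference (point) and quartiles (ends of the bar) in each list, on the log2(signal + 1) scale. The distal members have the highest median, 0.94, and the distal stretch also has the highest median among the other genes of the arm, 0.51. With dim genes at their bound, the median of the other genes is 0.31 both there and beyond NFATC2IP. Their share passing as higher is 33.3% in the distal stretch and 36.7% beyond NFATC2IP.

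Other genes are named here only if called without overlap and above the dim level of 17.6 on every array. Of the 5 largest rises and 5 largest falls by this rule, SNRNP25 and MSRB1 are each the next measured gene to a member. Called rises with a signal at or below the dim level on a mock array were left out, whatever their size. Among them were ABCA3, RAB26, SYNGR3 and XYLT1, with log2 differences of 5.22, 4.21, 3.07 and 2.79. SNRNP25, a protein of the minor spliceosome that starts next to POLR3K on the opposite strand, read 3341, 3332 and 3529 on the arrays labelled MALT1 and 821, 888 and 904 on the mock arrays. Its ratio of 3.91 (log2 difference 1.96 ± 0.09 SE, adjusted p = 0.00012 in the limma fit) stands beside 4.54 for POLR3K. MSRB1, a selenoprotein that repairs oxidised methionine and lies between HAGH and NTHL1, rose 5.43-fold, from 436 ± 97.8 to 2325 ± 32.2 (adjusted p = 0.00059, limma). LYRM1, between GDE1 and CRYM, rose 4.09-fold, GDPD3, beyond NFATC2IP, 4.20-fold, and the sulphotransferase SULT1A1, between XPO6 and TUFM, 11.3-fold. The SULT1A1 probe set is of the x_at kind and the gene has near-identical copies on the arm, so its signal may come from more than 1 gene. The 5 largest falls by the same rule included 1 gene of the middle stretch, the dynein regulator NDE1 (2.85-fold), and 1 of the proximal, the interleukin-4 receptor IL4R (4.99-fold). The others, beyond NFATC2IP, were the inflammasome adaptor PYCARD (7.33-fold), the vault protein MVP (4.15-fold) and the actin regulator CORO1A (3.26-fold). None of the 5 named falls was in the distal stretch, where 2 other genes passed as lower. These were TNFRSF12A, with a log2 difference of −0.74, and TPSAB1, with −1.95. TPSAB1 was left out by the rule because it was dim on all arrays labelled MALT1.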

How the data were processed

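Expression was measured on 6 single-colour arrays, 3 labelled MALT1 and 3 mock. The deposited values are linear intensity values, 1 per probe set, already summarised and scaled by the authors; per the values themselves each array's mean after trimming 2% at each end is near 500.2, and the scanner software, like any build, is not given in these labels. Without the 62 control probe sets, 22215 remained and were tested with no filter as log2(signal + 1), in which the added 1 shrinks differences of dim genes, by lmFit and eBayes of limma 3.58.1 in R 4.3.3, two-sided, with Benjamini-Hochberg adjustment over all 22215 and direction MALT1 minus mock. A call is an adjusted p under 0.05. The fit was also run on simulated independent arrays in which far fewer probe sets differed than passed here. That run checks the calculation alone and not the error rate in these data. Folds are ratios of geometric means of signals. Gene order and arms came from the RefSeq table of GRCh38.p14, used for order only, to which 19052 of 19064 single-symbol probe sets matched (1043 had several symbols and 2108 none).

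Values on all 6 arrays are given for members with a log2 difference of at least 1 in size and for the largest rise and fall of each role. Other 16p genes named are the 5 largest rises and 5 largest falls called without overlap and above 17.6 on every array. The members, roles, motifs and lists were chosen with earlier results of these data known, and the dim level and the printed promoters after the data were seen. Motif windows covered by another annotated transcript were not printed.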

Additional observations from a re-analysis of the deposited data

How the results depend on the processing

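Counts of calls stayed within 1.5 times under every alternative run for the members (20 to 31 of those measured, and 18 to 26 with 1 array left out), the other 16p genes (68 to 93, and 70 to 79) and the 16q genes (75 to 116, and 76 to 97). The share of all genes called moved too. It was lowest with the replicate number as a block, at 15.7% higher and 14.3% lower. With the dimmer probe sets left out it was highest, at 35.2% and 35.1%. Nothing is therefore read from how steady the counts were. Medians of log2 differences kept their sign throughout. With 16 added in place of 1 the median was 0.22 in the other 16p genes and 0.18 on 16q. With the dimmer probe sets left out it was 0.39 in the other 16p genes. Median centring, which moved the median of all genes from 0.08 to −0.05, gave 0.60 for the members, 0.22 for the other 16p genes and 0.15 on 16q, and quantile normalization 0.69, 0.26 and 0.18. Relative to all genes, the members' median was 0.65 as reported, which centring cannot change, and 0.71 after quantile normalization. Averaging all probe sets of a gene gave 0.69 for the members. Leaving out 1 array gave 0.67 to 0.76 for the members, 0.27 to 0.42 for the other 16p genes and 0.24 to 0.34 on 16q.

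Of the 26 members called, 16 were called in every alternative in which they were tested (TMC5 in 11, the others in 12) and 25 kept their sign in all of them. The exception was GLYR1, at −0.18 with all its probe sets averaged, where 2 dimmer probe sets entered. Over all members, 473 of 512 alternative differences moved by less than the SD between replicates. In 22 of the 512, spread over 9 members, the sign differed from the reported one. All but that of GLYR1 were in members not called. With the replicate number as a block, 20 members were called, 20 higher and 0 lower, 68 other 16p genes and 75 16q genes. The numbers did not pair the arrays: deviations of same-numbered arrays correlated at 0.04, 0.01 and 0.05, and the second array labelled MALT1 did not correlate best with its own number. Signals near the dim level limit what can be said of ERCC4, CRYM, TSC2 and TMC5.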

Other observations

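Some genes of 16p outside the list were dim on all 3 mock arrays and bright on those labelled MALT1, and were picked out after their values were seen. In all, 10 other genes of the arm were called while dim in 1 group, 9 as higher and 1 as lower, and their folds are bounds set by the dim level of 17.6. QPRT, an enzyme of NAD synthesis from tryptophan, read 1016 ± 82.6 against 7.22 ± 6.78 (mean ± SD, n = 3 each). Set against the dim level it was at least 57.5-fold higher, with an adjusted p of 0.0013 in limma. NME3, a nucleoside diphosphate kinase, had signals of 729 ± 34.1 against 6.19 ± 3.04 and was, by the same bound, at least 41.3-fold higher (limma adjusted p 0.00023). The member NME4 did not pass. For the synaptotagmin SYT17, at 179 ± 20.5 against 5.01 ± 0.794, the bound was at least 10.1-fold.

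Counted over whole chromosomes, chromosome 16 had the highest median difference of the 23 compared, 0.34 over 524 genes. These include the 43 listed genes, which were chosen by this contrast. Without them the median was 0.32 over 481 genes, with 146 called higher (30.4%) and 45 lower (9.36%). On chromosome 2 these shares were 30.3% and 11.9%, and over all genes 21.1% and 19.2%. By the median, chromosome 6 followed chromosome 16 with 0.24, and chromosome 13 had the lowest, −0.25. Dim genes were not set at their bound in these medians. The differences between chromosomes were not tested.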
